A study of Mus musculus with 27 samples.

Results

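Mouse lung fibroblasts that had spent 35 d with the ATM inhibitor KU60019 were set against cells that had spent 15 d with it, in both cases 20 d after the inhibitor was taken away. The 6 libraries were chosen by their titles, 3 on each side, out of 27 libraries in 9 groups. Every culture was of primary fibroblasts from the lungs of C57BL/6 mice with a wild-type genotype, grown with 15% serum in 3% oxygen, and KU60019 was given at 3 uM. Since the removal period was the same, the cells exposed for 35 d were harvested after 55 d of treatment and removal together and those exposed for 15 d after 35 d, so length of exposure and time in culture cannot be told apart within this comparison. Below, "35 d cells" and "15 d cells" are these 2 groups after removal. Used beside them were cells harvested at the end of 35 d or 15 d of KU60019 (before removal), and cells kept for 35 d or 15 d with the vehicle DMSO and then for 20 d without it. Another 9 libraries (DMSO for 35 d or 15 d without removal, and 10 d after 10 Gy of X-rays) were in no tested comparison. They entered the choice of genes tested, the scaling and the estimate of the spread. The titles number the libraries S22, S23 and S24 for 35 d cells and S10, S11 and S12 for 15 d cells, and values of a group are given below in that order. Nothing in the labels says whether the replicates were separate animals or cultures, so the spread behind the p-values may be only technical.

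ATM is the kinase that senses DNA double-strand breaks and activates p53 and the checkpoints behind it, and KU60019 blocks its catalytic site. p53 in turn raises Cdkn1a, whose product p21 stops the cell cycle. Fibroblasts that leave the cell cycle for good, called senescent, lose lamin B1 and proliferation transcripts, and many secrete cytokines, proteases and growth factor binding proteins.

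The 6 libraries held between 22976382 and 34854026 counts, within the range of 20659745 to 50859493 over all 27. Library S11 of the 15 d cells stood apart from its group. Its root mean square distance from the mean of the other libraries of its group was 0.583 on the log2 scale. This distance was 0.485 and 0.298 in the other 15 d libraries and 0.222 to 0.318 in the 35 d libraries. On the first principal component of the 6 libraries, which held 63.9% of their variance, S11 lay farthest from the 35 d cells. Ribosomal RNA genes took at most 0.156% of counts in the 6 libraries. Fibroblast markers were present in all 6, with summed levels of 10200 to 12800 CPM in 35 d cells and 21900 to 26000 CPM in 15 d cells. CPM are counts scaled by library size and TMM factor to a common total. The pan-leukocyte gene Ptprc and the macrophage gene Adgre1 had no count in any of the 6.

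Of 18684 genes tested, 5814 were called different between 35 d and 15 d cells, which is 31.1% of the genes tested (edgeR quasi-likelihood test, Benjamini-Hochberg adjusted p under 0.05). With the 6 libraries alone in the fit, 2636 were called, 2614 of them among the 5814. Of the genes named below, Abcc9, Acta2, Alx4, Asns, Atr, Comp, Cox7a2, Cspg4, Cyc1, Dnajc3, Dusp1, Ero1lb, Fabp4, Fosl1, Lmod1, Map2, Mdm2, Mre11a, Mylpf, Rad52, S100b, Stmn2, Tubb3 and Wt1 did not pass in that fit. In 35 d cells 2820 genes (15.1%) were higher and 2994 (16%) lower, and at least 2-fold for 1441 and 1271 of them. Changes of at least 8-fold were found for 222 higher and 126 lower genes. The 3 libraries of one group did not overlap the 3 of the other for 7109 of the 18684 genes tested. Of these, 5265 were called genes. The split between higher and lower depends on the scaling: with library size alone it was 4042 against 1742, and on the deposited TPM values 2856 against 1194, while RLE size factors gave 2920 against 2864. With library size alone the median log2 fold change of all genes moved to 0.20, against -0.02 with TMM, so all changes below are relative to the TMM scale. Log2 fold changes are 35 d over 15 d cells and carry ± SE.

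The cell cycle genes of the panel showed lower proliferation transcripts in 35 d cells together with a higher p21 transcript. Cdkn1a stood at 804, 746 and 731 CPM in 35 d cells and at 283, 493 and 340 CPM in 15 d cells. The groups did not overlap, and the log2 fold change was 1.03 ± 0.18 (adjusted p = 0.000138). Mki67, the proliferation marker gene (chromosome 7, 135689784 to 135716361, minus strand in GRCm38, GENCODE M21), had 3.32, 4.81 and 2.94 CPM in 35 d cells against 23.2, 29.4 and 26.5 CPM in 15 d cells. Every 35 d library lay well under every 15 d library, and the change was -2.84 ± 0.26 (adjusted p = 8.97e-08). Lmnb1, which encodes lamin B1 of the nuclear envelope, had 5.17, 6.05 and 4.22 CPM in 35 d cells and 13.3, 8.78 and 12.9 CPM in 15 d cells. It too fell without overlap (-1.19 ± 0.18, adjusted p = 3.61e-05). Mdm2, the ubiquitin ligase of p53 and itself a p53 target, averaged 127 ± 17.3 CPM in 35 d cells and 95.5 ± 9.43 CPM in 15 d cells (SD, n = 3 each). Its rise was small (0.41 ± 0.13, adjusted p = 0.0152) and did not pass without library S10 (adjusted p = 0.0634) or library S23 (0.0822).

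The other panel genes did not pass with all libraries. Atm itself had 1.43, 1.86 and 1.71 CPM in 35 d cells and 1.47, 1.07 and 0.56 CPM in 15 d cells (0.67 ± 0.46, adjusted p = 0.294). Trp53, the gene of p53 (chromosome 11, 69580359 to 69591873, plus strand), had 44, 45.7 and 27.8 CPM in 35 d cells against 38.4, 19.9 and 39.1 CPM in 15 d cells (0.27 ± 0.25, adjusted p = 0.441). For both, libraries of the 2 groups overlapped. Cdkn2a, which encodes the cell cycle inhibitors p16 and p19ARF, averaged 93 ± 5.91 CPM in 35 d cells and 122 ± 32.8 CPM in 15 d cells (-0.40 ± 0.31, adjusted p = 0.357). Its neighbour Cdkn2b, the gene of p15, averaged 44.2 ± 3.17 CPM in 35 d cells and 57 ± 12.8 CPM in 15 d cells (-0.37 ± 0.16, adjusted p = 0.0836). It did pass without library S10 (-0.54, adjusted p = 0.00891) and with the gene length trend removed (adjusted p = 0.0304). Il6, a cytokine of the secretory phenotype, was spread widely in 15 d cells, with 89.4, 116 and 59.9 CPM in 35 d cells and 92.5, 11.7 and 30.5 CPM in 15 d cells. The difference of 0.97 ± 0.62 (adjusted p = 0.252) passed without library S10 (2.07, adjusted p = 0.0195), the one with the high value.

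**Figure D1:**
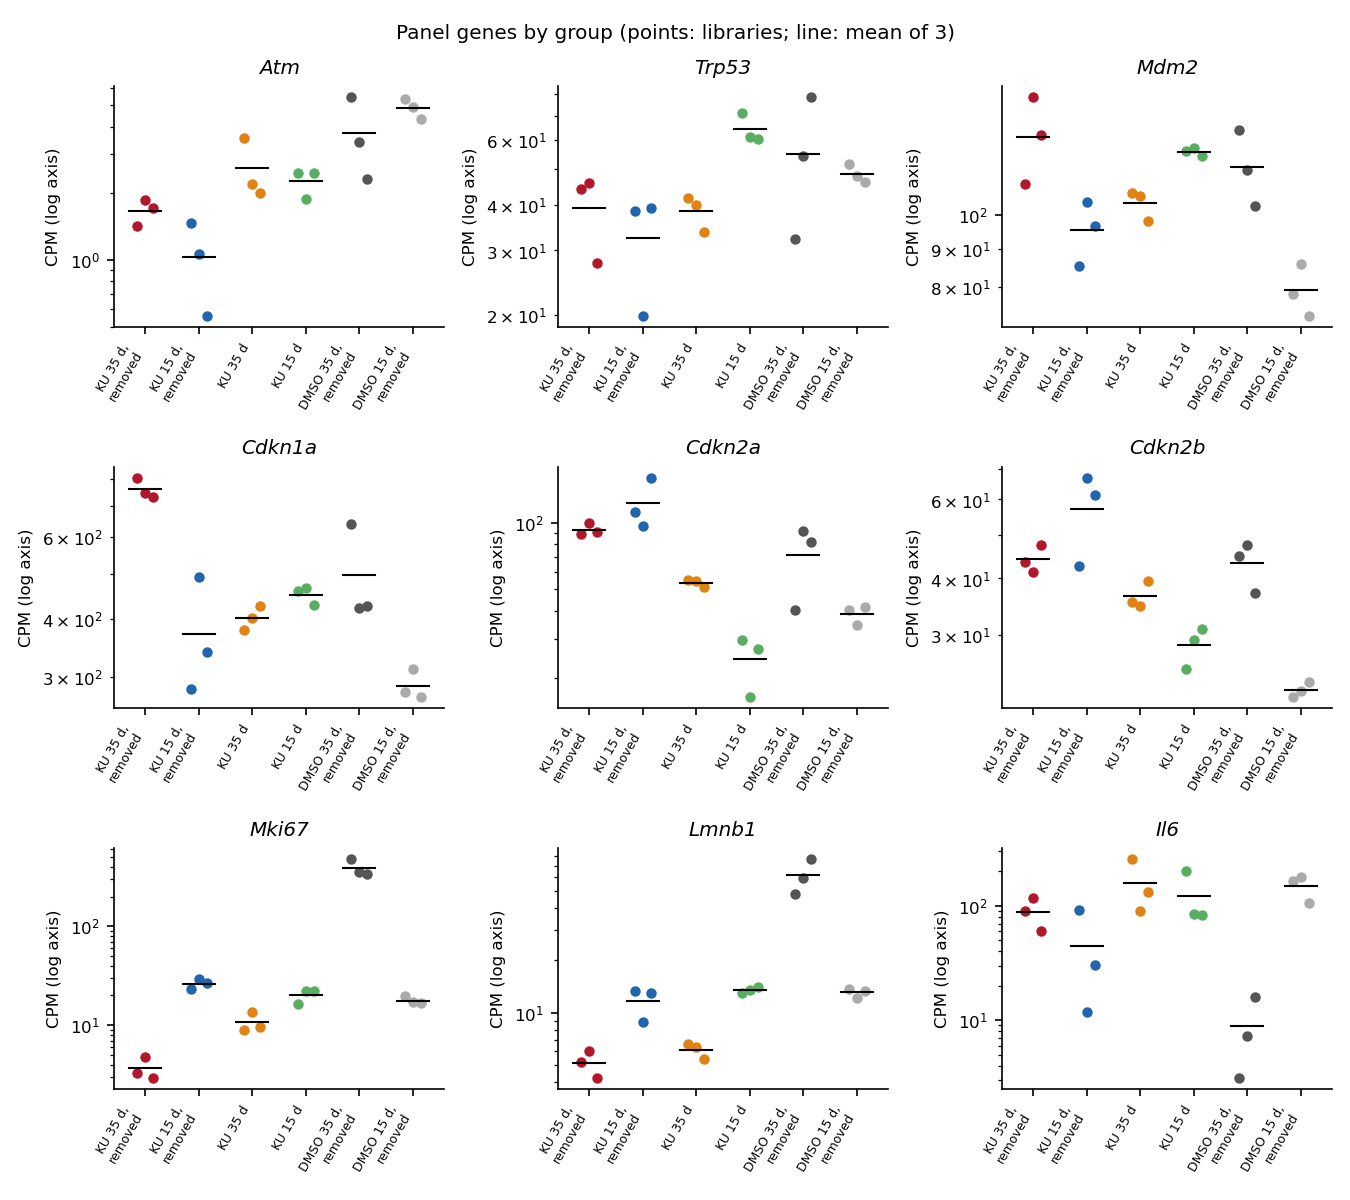
CPM on a log axis (vertical) of the 9 panel genes in 6 groups (horizontal), with KU60019 35 d then removed on the left, then 15 d then removed, 35 d and 15 d before removal, and DMSO 35 d and 15 d then removed. Points are libraries and lines are means of 3; Mki67 lies at 2.94 to 4.81 CPM in 35 d cells after removal, below every 15 d library, and Cdkn1a at 731 to 804 CPM, above every 15 d library.

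Mitosis genes were lower in 35 d cells. Of 30 members, 0 were called higher and 25 lower, beside 15.1% and 16% of all genes, and their median log2 fold change was -1.62, against -0.02 over all genes. Cdc20, an activator of the anaphase-promoting complex, had 2.89, 3.14 and 2 CPM in 35 d cells and 8.65, 10 and 11.5 CPM in 15 d cells (-1.92 ± 0.22, adjusted p = 1.14e-06). Ccnb2, the gene of cyclin B2, fell by a similar size (-1.98 ± 0.26), as did Nusap1 of the mitotic spindle (-1.64 ± 0.21). None of the 4 named members overlapped between the groups, as was so for 7109 of all 18684 genes. Apart from Dcn, Pdgfra and Vim, list members named here and below have the lowest p in this contrast. Their lack of overlap is therefore no separate support. On the deposited TPM values 13 members passed, all lower. The shares of all genes, 15.1% higher and 16% lower, stand beside every list below as well.

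DNA replication genes were lower less uniformly. Of 33 members, 3 were called higher and 15 lower, with a median of -0.50. Mcm6, a subunit of the replicative helicase, stood at 9.49, 12.9 and 9.93 CPM in 35 d cells and 26.3, 34.6 and 31.8 CPM in 15 d cells (-1.52 ± 0.13, adjusted p = 3.66e-08). Tk1, the S phase thymidine kinase, fell by more (-2.04 ± 0.22), and Lig1, the ligase that joins Okazaki fragments (-1.24 ± 0.19), and the helicase gene Mcm7 (-0.88 ± 0.12) by less than Mcm6. With library size alone, 3 members were higher and 8 lower, and without library S11 1 was higher and 14 lower. Of 13 replication-dependent histone genes tested, 0 were called higher and 1 lower, Hist1h4i (-1.87 ± 0.35).

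Because the mitosis genes moved together, their promoters were searched for the cell cycle homology region, TTTGAA on either strand, a short element known from late cell cycle promoters. The windows run from 250 bases before to 50 after a start, from RefSeq on GRCm38.p6, and matched 24 of the 30 members. The letters were present in 17 of these 24 genes, against 5466 of all 27025 genes with a window (20.2%). For DNA replication genes, the E2F site TTTCCCGC on either strand was present in 5 of 27 matched members and in 1.24% of all genes. A match is a description of letters and not of a bound site. The windows of Mki67 (chr7:135716330-135716629, minus strand), Cdc20 (chr4:118437294-118437593, minus strand) and Ccnb2 (chr9:70421505-70421804, minus strand), the named members that hold the element, are shown 5′ to 3′ with it in capitals.
Mki67: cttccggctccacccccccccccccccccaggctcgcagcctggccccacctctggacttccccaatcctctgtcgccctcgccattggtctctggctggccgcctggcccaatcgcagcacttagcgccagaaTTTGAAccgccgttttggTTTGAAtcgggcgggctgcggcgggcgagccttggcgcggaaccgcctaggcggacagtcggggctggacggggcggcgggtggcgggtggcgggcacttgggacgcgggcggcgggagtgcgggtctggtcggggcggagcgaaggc
Cdc20: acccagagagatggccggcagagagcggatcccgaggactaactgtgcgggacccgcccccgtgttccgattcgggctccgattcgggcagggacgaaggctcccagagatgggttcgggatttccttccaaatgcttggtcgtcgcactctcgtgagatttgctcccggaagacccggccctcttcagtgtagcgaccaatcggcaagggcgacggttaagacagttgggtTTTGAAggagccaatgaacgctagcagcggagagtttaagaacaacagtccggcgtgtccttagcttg
Ccnb2: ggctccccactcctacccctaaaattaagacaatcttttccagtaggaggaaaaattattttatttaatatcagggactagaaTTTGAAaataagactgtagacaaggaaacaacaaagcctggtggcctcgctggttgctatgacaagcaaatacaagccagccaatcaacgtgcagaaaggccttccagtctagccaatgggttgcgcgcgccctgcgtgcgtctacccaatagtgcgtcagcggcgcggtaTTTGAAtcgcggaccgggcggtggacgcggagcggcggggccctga

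p53 target genes were mixed with more members higher than lower in 35 d cells. Of 30 members, 12 were called higher and 5 lower, with a median of 0.41. Gdf15, a stress cytokine, had 57.1, 84 and 85.1 CPM in 35 d cells and 15.8, 5.83 and 10.9 CPM in 15 d cells (2.79 ± 0.31, adjusted p = 1.09e-06). Perp, a membrane protein gene of p53-dependent apoptosis, rose to 5.17, 8.65 and 6.49 CPM in 35 d cells, against 1.34, 1.27 and 1.63 CPM in 15 d cells (2.26 ± 0.28). Tigar, a regulator of glycolysis, rose by less (0.78 ± 0.12). In a fit of the 6 libraries alone, 9 members were higher and 0 lower; 10 and 2 were so without S11, 11 and 3 without S12, and 13 and 3 without S22. The list of cell cycle inhibitors and senescence regulators moved the other way: of 19 members, 1 was called higher and 10 lower, with a median of -0.47. Cdkn1b, the gene of the inhibitor p27, had 36.6, 37 and 38.3 CPM in 35 d cells and 68.8, 68.1 and 70.7 CPM in 15 d cells (-0.89 ± 0.12, adjusted p = 9.41e-06). The gene of the inhibitor p18, Cdkn2c (-1.85 ± 0.28), the helix-loop-helix gene Id1 (-1.77 ± 0.27) and the T-box repressor gene Tbx2 (-1.10 ± 0.16) fell as well. Each lacked overlap, again among members picked by lowest p. Transcripts of the kinase inhibitors p27 and p18 were thus lower in the cells where that of p21 was higher.

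Genes of DNA damage response and repair differed by small amounts. Of 26 members, 6 were called higher and 2 lower, with a median of 0.08. The share called either way (8 of 26) was close to the 31.1% of all genes. The kinase gene Atr (0.47 ± 0.14), Mre11a of the break-sensing complex (0.39 ± 0.12) and Rad52 (0.36 ± 0.11) rose by small amounts. None of these 3 calls held with every library left out in turn: Atr was lost without S24 (adjusted p = 0.0777), Mre11a without S11 (0.0866) or S22 (0.1), and Rad52 without S12 (0.0825) or S24 (0.0615). In the edgeR fit of the 6 libraries alone 0 members passed (DESeq2 on all libraries called 7 higher and 2 lower), and with any 1 of 5 libraries left out (all but library S10) between 2 and 5 passed.

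The 15 genes with the largest rises in 35 d cells were at a low level in 15 d cells, all but Cxcl14 and Tmem59l under 5 CPM in each library. Vgf, a neuropeptide precursor gene (chromosome 5, 137026392 to 137033351, plus strand), had 74.7, 57.2 and 75.8 CPM in 35 d cells and 0.848, 0.575 and 0.56 CPM in 15 d cells. All 3 of the 35 d libraries were far above all 15 d libraries (6.68 ± 0.36, adjusted p = 9.55e-11). Cxcl14, a chemokine gene, had 1160, 985 and 1040 CPM in 35 d cells against 83.7, 12.3 and 29 CPM in 15 d cells (4.67 ± 0.55, adjusted p = 2.00e-06). It was the most abundant of the 15 genes with the largest rises. Crabp2, a carrier of retinoic acid (chromosome 3, 87948666 to 87953376, plus strand), stood at 52.7, 66.9 and 58.4 CPM in 35 d cells and 3.46, 1.85 and 2.57 CPM in 15 d cells (4.49 ± 0.38). Tmem59l (4.31 ± 0.32), Ache, which encodes acetylcholinesterase (3.78 ± 0.30), and Gal, the precursor of the neuropeptide galanin (5.01 ± 0.63), rose too.

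Further large rises were those of Lce1g of the cornified envelope (5.78 ± 0.56), S100a8, a subunit of calprotectin (4.31 ± 0.35), and Cd40, a receptor of the tumour necrosis factor family (4.94 ± 0.44). Hsd3b6 had 75.9, 110 and 72.4 CPM in 35 d cells and 4.18, 1.6 and 3.55 CPM in 15 d cells (4.78 ± 0.59). It encodes a 3-beta-hydroxysteroid dehydrogenase, as does Hsd3b3 (4.33 ± 0.60), and these neighbouring copies may share reads. The granzyme gene Gzme rose (4.18 ± 0.55), again with similar copies nearby. The collagen gene Col22a1 (3.97 ± 0.40), the transaminase-like gene Got1l1 (4.33 ± 0.33) and Map7, a microtubule-associated protein gene (3.78 ± 0.29), complete the 15. All 15 passed with each of the 6 libraries left out in turn. As they were chosen by size and lack of overlap in these same libraries, this is no separate support. Without library S10, 6 of them moved by more than 1.5 times, each of which had its highest 15 d value there: Lce1g (6.95), Gal (6.47), Cd40 (6.12), Cxcl14 (5.68), Gzme (5.42) and Ache (4.55).

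The 15 genes with the largest falls include secreted proteins, receptors and transcription factors. Clec3b, the gene of the plasminogen-binding protein tetranectin, had 0.849, 1.09 and 0.881 CPM in 35 d cells and 64.9, 265 and 231 CPM in 15 d cells. The groups were far apart (-7.64 ± 0.69, adjusted p = 8.62e-08). Igfbp5, a binding protein of insulin-like growth factors (chromosome 1, 72857932 to 72874884, minus strand), had 45.1, 53.7 and 63.1 CPM in 35 d cells against 1270, 1570 and 1790 CPM in 15 d cells (-4.84 ± 0.33, adjusted p = 5.83e-09). Dpt, the matrix protein gene dermatopontin, had 10.4, 14.5 and 10 CPM in 35 d cells against 333, 270 and 317 CPM in 15 d cells (-4.72 ± 0.45). Both were even within the groups. Gas1, a growth arrest gene and hedgehog co-receptor, had 6.6, 14.2 and 8.15 CPM in 35 d cells and 130, 444 and 207 CPM in 15 d cells (-4.75 ± 0.41). Ptn, the growth factor gene pleiotrophin (chromosome 6, 36714929 to 36810220, minus strand), had 0.656, 2.06 and 1.07 CPM in 35 d cells and 40, 331 and 165 CPM in 15 d cells (-7.15 ± 0.60). Ear2, a ribonuclease gene with near-identical copies, so that its own level is uncertain, had 1 count in all 35 d libraries together and 634 in the 15 d libraries. That is 739-fold lower in 35 d cells, with a 95% counting interval of 132 to 29200. Clca3a1, of a family of chloride channel regulators, fell as well (-4.59 ± 0.72).

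In 10 of the 15 largest falls the size rested in part on library S11, which had the highest level. Tril, an accessory protein gene of toll-like receptors, had 0.0386, 0.155 and 0 CPM in 35 d cells and 0.196, 14.1 and 1.21 CPM in 15 d cells. Its fall of -6.39 ± 1.14 became -3.46 (adjusted p = 0.00357) without that library. Alx4, a homeobox gene, had 0.193, 0.892 and 0.774 CPM in 35 d cells and 0.946, 42.3 and 2.99 CPM in 15 d cells. Its fall of -4.61 ± 1.04 was -1.62 without the library and no longer passed (adjusted p = 0.143). The forkhead gene Foxd1 moved to -2.83 without it, against -4.89 with it. The adrenergic receptor gene Adra2a moved to -2.51 (-4.82 with it), the collagen gene Col8a2 to -2.25 (-4.54), the cofactor gene Ldb2 to -4.97 (-6.59) and Ndnf to -3.71 (-4.98). Ptn (-6.35), Rspo2 (-4.13) and Gas1 (-4.13) changed less, and of the 10 all but Alx4 still passed. Without other libraries, Ear2 (-8.30 to -11.16), Ldb2 (-5.86 and -7.82), Tril (-5.67 and -8.01), Foxd1 (-5.51) and Adra2a (-5.71) moved by more than 1.5 times, and all 5 still passed.

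**Figure D2:**
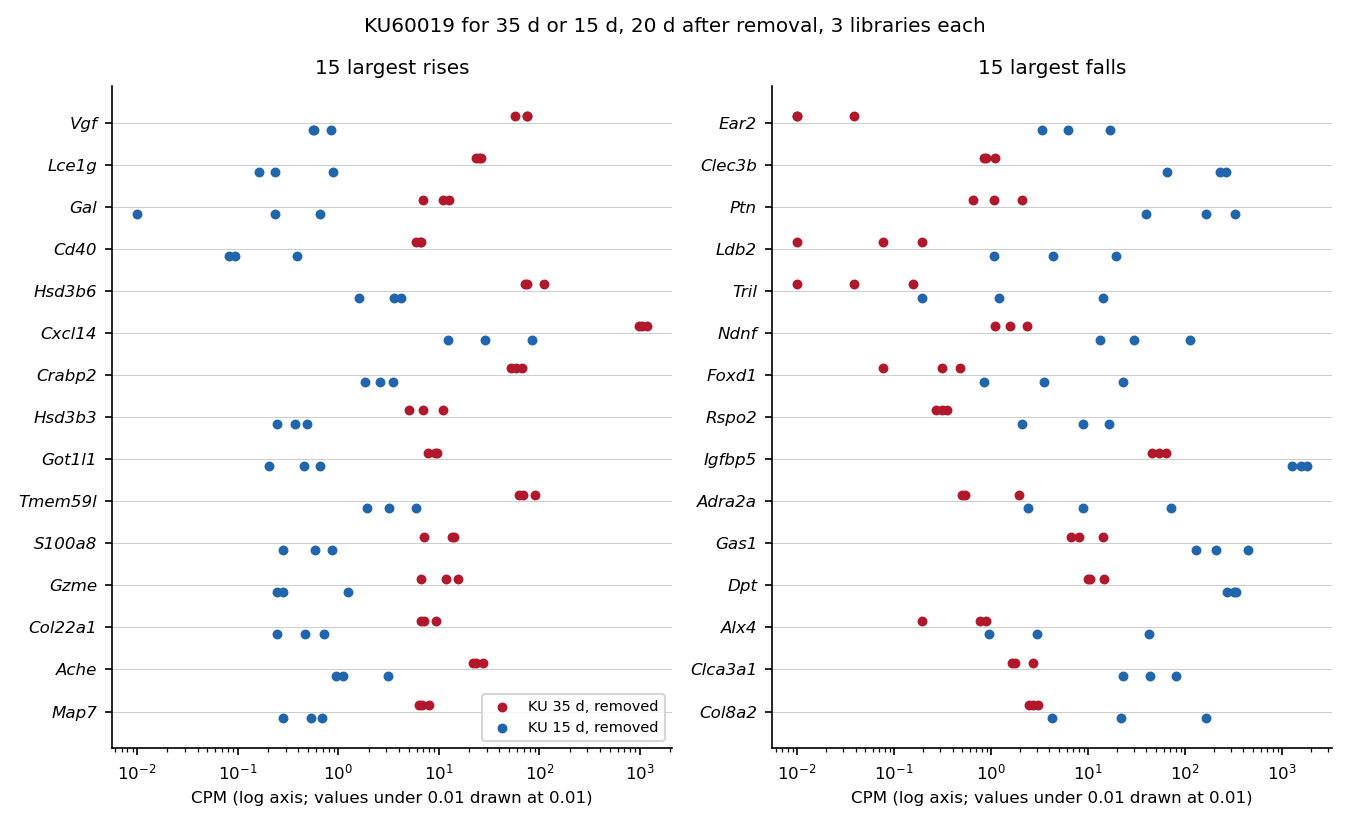
CPM on a log axis (horizontal) of the 15 genes with the largest rises (left) and the 15 with the largest falls (right), 1 row per gene, with 3 libraries of 35 d cells drawn above 3 of 15 d cells. The groups do not overlap by the rule that chose these genes, and in several falls such as Tril, Alx4 and Col8a2 one 15 d library lies far above the other two.

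Interferon response genes, which cells switch on against viruses, were lower in 35 d cells. Of 40 members, 0 were called higher and 29 lower, with a median of -1.37, and the fitted log2 fold changes ran from -3.59 to -0.32. Stat2, a transcription factor of the response, had 34.8, 34.1 and 32.8 CPM in 35 d cells and 67.4, 94.2 and 99.6 CPM in 15 d cells (-1.36 ± 0.21, adjusted p = 4.76e-05). Its partner Irf9 (-1.41 ± 0.18) fell as well. Gbp3, a guanylate-binding protein gene, had 6.56, 9.89 and 6.22 CPM in 35 d cells and 32.9, 49.9 and 44.7 CPM in 15 d cells (-2.49 ± 0.35). None of these 3 overlapped between the groups, again among members picked by lowest p. Genes of MHC class I and antigen processing were mixed. Of 15 members 2 were called higher and 4 lower, beside 15.1% and 16% of all genes, with a median of -0.30. Among them the peptide loading gene Tapbp (-1.26 ± 0.20), the peptide trimming gene Erap1 (-0.80 ± 0.16) and the immunoproteasome gene Psmb10 (-1.54 ± 0.44) fell, and Nlrc5, a transactivator of class I genes, rose (1.62 ± 0.39). Psmb10 did not pass without library S11 (-0.93, adjusted p = 0.122), and 2 members were then higher and 2 lower; 1 and 3 were so without S12 or without S22.

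The interferon members' promoters were searched for TTCNNTTTC on either strand, the core of the interferon-stimulated response element, which Irf9 recognises. It was present in 19 of 29 matched members and in 9.76% of all genes with a window. The windows of Gbp3 (chr3:142559794-142560093, plus strand) and Stat2 (chr10:128270248-128270547, plus strand) are shown with the element in capitals; in Gbp3 2 matches overlap and run into each other. Irf9 holds no match in this window.
Gbp3: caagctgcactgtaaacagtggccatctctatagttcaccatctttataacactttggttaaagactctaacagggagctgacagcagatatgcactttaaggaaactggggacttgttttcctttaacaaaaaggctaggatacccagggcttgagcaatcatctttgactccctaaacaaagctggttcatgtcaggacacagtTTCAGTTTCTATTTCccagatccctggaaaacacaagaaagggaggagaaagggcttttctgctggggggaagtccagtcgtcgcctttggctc
Stat2: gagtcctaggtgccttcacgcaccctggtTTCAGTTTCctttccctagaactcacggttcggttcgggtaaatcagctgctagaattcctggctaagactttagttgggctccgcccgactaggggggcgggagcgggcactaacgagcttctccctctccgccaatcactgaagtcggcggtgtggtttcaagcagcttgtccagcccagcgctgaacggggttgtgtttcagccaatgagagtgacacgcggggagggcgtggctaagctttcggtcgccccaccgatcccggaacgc

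Extracellular matrix genes were lower in 35 d cells. Of 37 members, 3 were called higher and 23 lower, with a median of -1.01. Col1a2, a chain of type I collagen, had 2260, 2930 and 2130 CPM in 35 d cells and 8030, 8330 and 6610 CPM in 15 d cells (-1.65 ± 0.16, adjusted p = 2.45e-07). The elastic fibre genes Fbln5 (-2.75 ± 0.28) and Fbn1 (-1.36 ± 0.19) and the type VI collagen gene Col6a2 (-2.15 ± 0.27) fell too. The proteoglycan gene Dcn went against this, with 1820, 1400 and 1400 CPM in 35 d cells and 890, 243 and 451 CPM in 15 d cells (1.55 ± 0.42, adjusted p = 0.00731). Of the 13 fibroblast markers, 10 were called lower and 1 higher, again Dcn, with a median of -1.30; on TPM 6 were lower and 1 higher. On TPM 3 matrix genes were higher and 13 lower.

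Among the fibroblast markers, S100a4 (-3.38 ± 0.47), Col1a1 (-1.69 ± 0.25) and the receptor gene Pdgfrb (-0.79 ± 0.14) fell, as did Pdgfra (-1.02 ± 0.21), while the intermediate filament gene Vim averaged 2719 ± 333 CPM in 35 d cells and 2698 ± 348 CPM in 15 d cells (0.01 ± 0.19, adjusted p = 0.974). In bulk RNA, fewer cells of a type and less RNA per cell cannot be told apart. Of 29 lung mesenchyme and positional transcription factors tested, 0 were called higher and 11 lower, with a median of -0.06. The named ones, Snai2 (-1.52 ± 0.16), Prrx2 (-2.30 ± 0.28), Osr1 (-1.41 ± 0.18) and Meox2 (-4.03 ± 0.58), all fell, Meox2 by less without library S11 (-2.86). Without S10, 3 members of the list were higher and 10 lower.

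Contractile genes differed in a few members, 6 of 17 in either direction beside 31.1% of all genes. Of 17 tested, 2 were called higher and 4 lower, with a median of -0.42; 0 were higher with any 1 of S11, S12, S22 and S23 left out, 1 was higher without S24, and 2 were lower without S22. Acta2, smooth muscle actin, averaged 1535 ± 282 CPM in 35 d cells and 2695 ± 511 CPM in 15 d cells (-0.81 ± 0.25, adjusted p = 0.018), and Actg2 (-1.17 ± 0.37), Tpm2 (-1.04 ± 0.27) and Lmod1 (-0.99 ± 0.24) were lower too. Acta2 did not pass without S10 (adjusted p = 0.0714) or S22 (0.0942), with library size alone (0.0585), on TPM (0.0763) or with the 6 libraries alone (0.053), and Actg2 not without S11 (0.062) or S22 (0.0985). The CArG box of serum response factor was present in the promoter window of 2 of 13 matched members and in 1.81% of all genes.

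Signalling genes went both ways. Of 22 TGF-beta and BMP genes, 5 were called higher and 7 lower, with a median of -0.01. The ligand gene Tgfb1 had 59.2, 55.2 and 48.1 CPM in 35 d cells and 30, 17.5 and 23.3 CPM in 15 d cells (1.20 ± 0.13, adjusted p = 1.09e-06). Inhba, the activin A chain, rose (2.98 ± 0.47), while the co-receptor gene Tgfbr3 (-1.02 ± 0.15) and Ltbp1, which holds latent TGF-beta in the matrix (-1.06 ± 0.18), fell. Of 20 WNT genes tested, 3 were called higher and 6 lower, with a median of 0.02. Without library S10 these counts were 6 and 8. With library size alone they were 8 and 6, where 4042 of all 18684 genes were higher and 1742 lower. The antagonist gene Frzb (1.66 ± 0.20) and the ligand gene Wnt11 (1.41 ± 0.19) rose, and the R-spondin genes Rspo1 (-2.15 ± 0.45) and Rspo2 (-4.87 ± 0.84), which amplify WNT signals, fell. Without library S11, Rspo1 was at -1.14 and Rspo2 at -4.13.

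Complement genes were lower where they passed: of 13 tested, 0 were called higher and 4 lower, with a median of -0.67. These were C3, the central component, with 351, 156 and 218 CPM in 35 d cells and 1360, 1010 and 805 CPM in 15 d cells (-2.13 ± 0.55), C4b (-2.57 ± 0.39), and the C1 protease genes C1s1 (-1.67 ± 0.25) and C1ra (-1.46 ± 0.33). Immediate early genes hardly differed as a list: of 18 members 2 were called higher and 1 lower, with a median of -0.04. Fosl1 (1.30 ± 0.32) and Ier3 (0.78 ± 0.18) rose and the phosphatase gene Dusp1 (-1.24 ± 0.34) fell, Dusp1 with overlap of S23 and the 15 d libraries. Fosl1 was at 2.20 without S10. Dusp1 was at -1.94 without S23 and did not pass without S22 (adjusted p = 0.055) or S24 (0.052). Without library S10 3 were higher and 2 lower, and without library S23 2 and 5; 2 and 2 were so without S11, and 3 and 0 without S22 or without S24.

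The secretory phenotype list split in both directions. Of 42 members tested out of 45, 12 were called higher and 7 lower, with a median of 0.28. Il11, a fibroblast cytokine, had 29, 23.2 and 34.1 CPM in 35 d cells and 4.44, 2.42 and 3.13 CPM in 15 d cells (3.10 ± 0.34, adjusted p = 8.91e-07). Vegfa, the endothelial growth factor gene, had 412, 528 and 527 CPM in 35 d cells and 279, 129 and 163 CPM in 15 d cells (1.36 ± 0.25). Against these rises stood the falls of the membrane protease gene Mmp14 (-1.27 ± 0.15) and of Igfbp5, described above. Without library S11 the balance turned to 7 higher and 8 lower, and in the fit of the 6 libraries alone 7 members were higher and 4 lower.

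**Figure D3:**
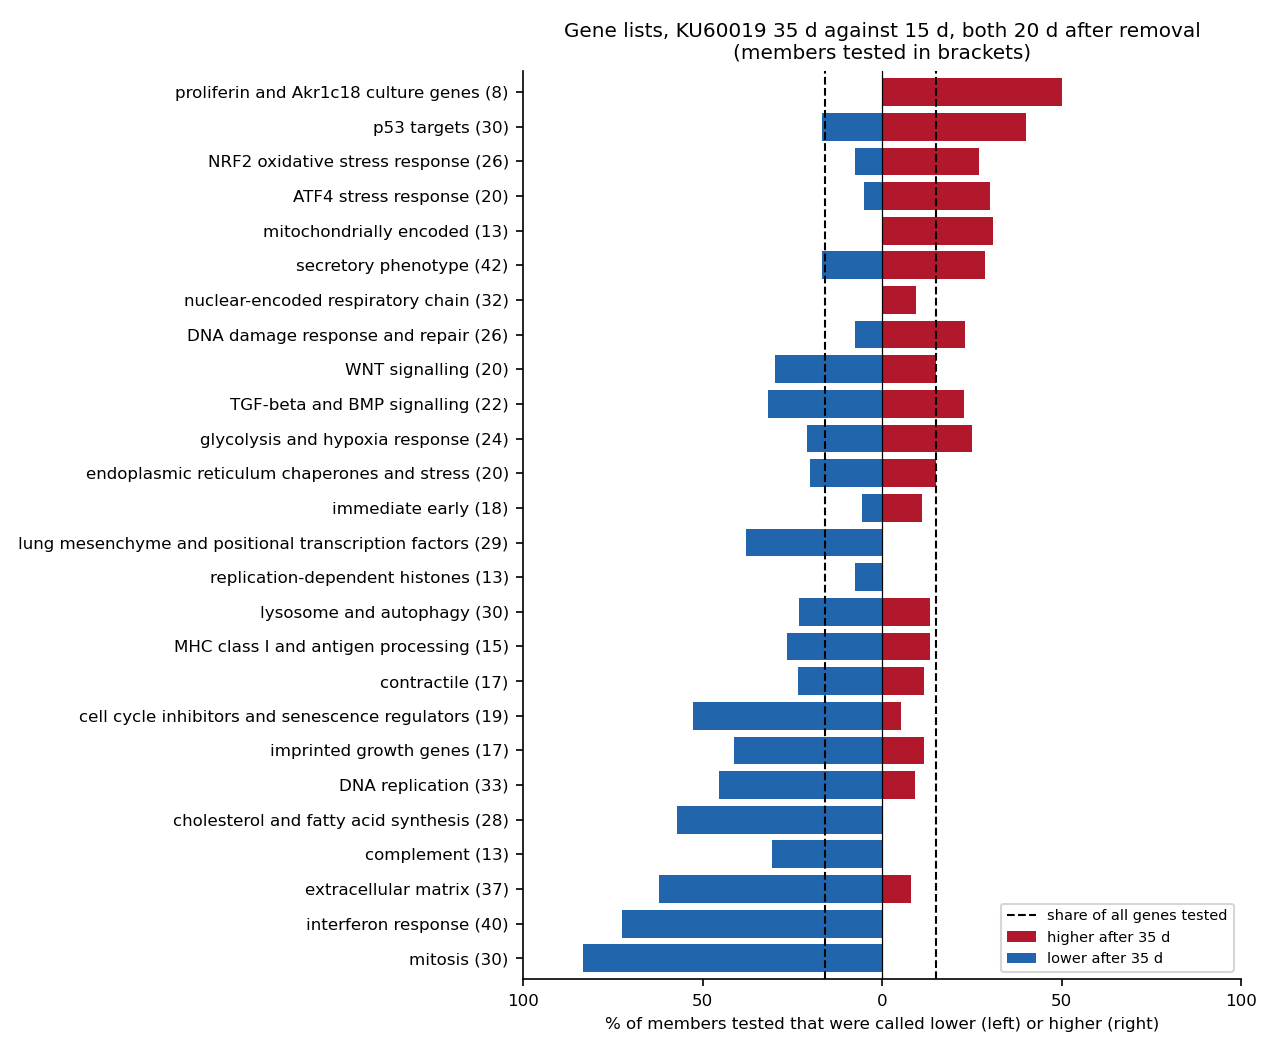
Share of tested members of 26 gene lists called lower (left, blue) or higher (right, red) in 35 d than in 15 d cells, in percent, ordered by median log2 fold change with the number tested in brackets; dashed lines mark the shares among all genes, 15.1% higher and 16% lower. Mitosis (25 of 30), interferon response (29 of 40) and extracellular matrix (23 of 37) have the longest bars to the left.

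Stress response genes were higher for several members. Of 26 NRF2 oxidative stress genes, 7 were called higher and 2 lower, beside 15.1% and 16% of all genes, with a median of 0.34. On TPM 14 were higher and 1 lower, where 2856 of 16350 genes were higher and 1194 lower. Hmox1, heme oxygenase 1, had 1170, 1390 and 828 CPM in 35 d cells and 409, 260 and 310 CPM in 15 d cells (1.79 ± 0.21, adjusted p = 2.15e-06). Srxn1 (0.87 ± 0.10), Nqo1 (1.04 ± 0.23) and the glutathione transferase gene Gsta3 (2.95 ± 0.38) rose with it. Only 1 member was lower without S11 or without S24, and 5 were higher and 1 lower without S23. Of 20 ATF4 targets, 6 were called higher and 1 lower beside the same shares of all genes, with a median of 0.32. Without library S10 these counts were 10 and 1. The hormone gene Fgf21 (3.23 ± 0.57), the pseudokinase gene Trib3 (1.17 ± 0.24) and asparagine synthetase Asns (1.07 ± 0.24) rose, Fgf21 by more without S10 (5.14), and Atf5 fell (-0.89 ± 0.18). Endoplasmic reticulum chaperone and stress genes showed 3 higher and 4 lower of 20, with a median of -0.03. The disulfide isomerase genes Pdia6 (-0.78 ± 0.14) and Pdia3 (-0.71 ± 0.14) and the cochaperone gene Dnajc3 (-0.44 ± 0.11) fell, and the oxidase gene Ero1lb rose (0.90 ± 0.24). Of this list 6 were higher without S10 and 1 without any one of S11, S12 and S23, with 4 lower each time.

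Cholesterol and fatty acid synthesis genes were lower in 35 d cells. Of 28 members, 0 were called higher and 16 lower, with a median of -0.61; with library size alone 10 were lower and on TPM 8. Cyp51, lanosterol demethylase, had 37.2, 38.9 and 39.5 CPM in 35 d cells and 79.6, 85.5 and 80.4 CPM in 15 d cells (-1.09 ± 0.14, adjusted p = 3.75e-06). Hmgcs1 of the early mevalonate pathway (-1.22 ± 0.16), its regulator gene Insig1 (-1.19 ± 0.15) and the elongase gene Elovl6 (-1.55 ± 0.18) also fell. Lysosome and autophagy genes went both ways, with 4 of 30 called higher and 7 lower. These stood beside 15.1% and 16% of all genes, and the median was -0.23. Lamp2 of the lysosomal membrane had 273, 295 and 292 CPM in 35 d cells and 586, 566 and 600 CPM in 15 d cells (-1.03 ± 0.11). Ctsa (-0.95 ± 0.14) fell too, while the sialidase gene Neu1 (0.65 ± 0.12) and the autophagy receptor gene Sqstm1 (0.86 ± 0.15) rose.

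Energy metabolism genes differed in a few members. Of 24 glycolysis and hypoxia genes, 6 were called higher and 5 lower, with a median of -0.03. Ero1l (1.69 ± 0.23) and the carbonic anhydrase gene Car9 (1.85 ± 0.34) rose with Vegfa, and Pdk1, a brake on pyruvate oxidation, fell (-0.82 ± 0.11). Without S10 Car9 was at 2.67, and 3 members were lower without S11 or without S23 and 2 without S24. Of 32 nuclear-encoded respiratory chain genes, 3 were called higher and 0 lower, with a median of 0.09, where 15.1% of all genes were called higher. They were the cytochrome c gene Cycs (0.90 ± 0.12), Cyc1 (0.58 ± 0.16) and Cox7a2 (0.59 ± 0.16). Of these, Cyc1 did not pass without S11 (adjusted p = 0.0655). With library size alone 7 were higher, where 4042 of all 18684 genes were, a similar share. Without library S23 5 were higher. Of 13 mitochondrially encoded RNAs, 4 were called higher and 0 lower, with a median of 0.31. Together these messengers took 2.85 to 3.21% of counts in 35 d cells and 1.12 to 1.43% in 15 d cells. mt-Co1, a subunit of cytochrome oxidase, had 12200, 11300 and 7620 CPM in 35 d cells and 4200, 2270 and 3380 CPM in 15 d cells (1.66 ± 0.26, adjusted p = 4.12e-05). mt-Nd5 (3.06 ± 0.55), mt-Nd6 (2.01 ± 0.42) and mt-Nd2 (0.85 ± 0.27) rose as well, mt-Nd2 not without S11 (adjusted p = 0.087), S12 (0.0543) or S23 (0.0512). The genes mt-Nd5 and mt-Nd6 lie end to end on opposite strands, so without knowing that strand was counted their values are uncertain.

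Among 17 imprinted growth genes, 2 were called higher and 7 lower, with a median of -0.50. Plagl1, a zinc finger regulator of this network, had 2.78, 2.99 and 3.31 CPM in 35 d cells and 8.94, 30.7 and 24 CPM in 15 d cells (-2.80 ± 0.31). Dlk1 (-3.23 ± 0.63), Slc38a4 (-2.87 ± 0.42) and Nnat (-2.29 ± 0.36) fell as well; Dlk1 overlapped between the groups and was at -3.93 without S23. With any 1 of S11, S12, S22 and S23 left out, 1 member was higher and between 5 and 7 were lower. The summed level of the list was higher in 35 d cells, at 2200 to 2720 CPM against 1240 to 2060 CPM in 15 d cells, and in 35 d cells most of it was Dcn, which is on this list too. A list of proliferin, granzyme and Akr1c18 genes was drawn up with earlier results of these data known. Of 8 tested, 4 were called higher and 0 lower, with a median of 2.56. Akr1c18, a progesterone-inactivating dehydrogenase, had 15.2, 17.6 and 12.4 CPM in 35 d cells and 3.49, 0.534 and 1.31 CPM in 15 d cells (3.04 ± 0.48, adjusted p = 5.03e-05), and was at 4.05 without S10. Gzmd rose (3.67 ± 0.82) at levels under 1 CPM, and Gzmg had 13 counts in 35 d cells against 0 in 15 d cells. With 3 counts taken as the floor of the whole group this is 3.72-fold higher for Gzmg, counting error of the 13 left out. Gzmg did not pass without S11 (adjusted p = 0.0513), and the granzyme copies may share reads.

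Some markers of other cell types were called as well, beside 31.1% of all genes. Macrophage (3 of 11), chondrocyte and osteoblast (3 of 11), Schwann cell (1 of 9) and epithelial (0 of 5) markers lay under that share. The other lists of such markers, each short, lay above it. The part of these markers in the results above was not tested. Of 11 macrophage markers tested, 3 were called higher and 0 lower, with summed levels of 88.6 to 124 CPM in 35 d cells and 28.2 to 54.2 CPM in 15 d cells. Cd68, which is also a lysosomal gene, had 27.6, 19.6 and 21.8 CPM in 35 d cells and 4.34, 3.12 and 4.72 CPM in 15 d cells (2.50 ± 0.18), and the lysozyme gene Lyz2 rose (2.30 ± 0.34). Marco had 7 counts in 35 d cells against 0 in 15 d cells. With 3 counts taken as the floor of the whole group this is 2-fold higher, counting error of the 7 left out. Marco passed only narrowly, and its call was lost without any one of the libraries but S23 (adjusted p of 0.0504 to 0.165). The call was also lost with DESeq2 (0.0523) and with no filter on counts (0.0615). The genes Ptprc and Adgre1 were at 0. Of 13 endothelial markers, 2 were called higher and 5 lower, with sums of 34.6 to 42.2 CPM in 35 d cells and 29.3 to 48.9 CPM in 15 d cells. Egfl7 rose (1.59 ± 0.28) and Kdr fell (-2.97 ± 0.76, and -3.58 without S24). Cldn5 had 1 count in 35 d cells and 79 in 15 d cells (92.1-fold lower, counting interval 16.1 to 3680), and Emcn had 1 in 35 d cells and 22 in 15 d cells (25.7-fold lower, 4.15 to 1060). Emcn did not pass without S23 (adjusted p = 0.0518) or S24 (0.0714). Without library S23 2 endothelial markers were higher and 2 lower, without S22 2 and 3, and without S11 or S24 1 and 4.

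Of 7 pericyte markers tested, 3 were called higher and 1 lower, with sums of 627 to 829 CPM in 35 d cells and 796 to 1160 CPM in 15 d cells. Rgs5 (2.48 ± 0.53), Kcnj8 (1.55 ± 0.40) and Abcc9 (1.76 ± 0.56) rose and Cspg4 fell (-1.87 ± 0.55), the last with overlap. Without library S11 or S22, 2 were higher and 0 lower, since Abcc9 (adjusted p = 0.1 without S11 and 0.0778 without S22) and Cspg4 (0.170 and 0.0655) no longer passed. Cspg4 was at -1.04 without S11 and Abcc9 at 2.35 without S10, where 4 markers were higher and 2 lower, and without S23 3 and 2. Of 6 adipocyte and lipofibroblast markers, 2 were called higher and 0 lower (sums of 402 to 839 CPM in 35 d cells against 366 to 883 CPM in 15 d cells). Fabp4, a fatty acid carrier, had 188, 80.9 and 126 CPM in 35 d cells and 53.4, 4.39 and 15.8 CPM in 15 d cells (2.42 ± 0.64), and Cd36 had 38 counts in 35 d cells against 2 in 15 d cells (16.3-fold higher, counting interval 4.21 to 139). Without S10, Fabp4 was at 3.71. With the 6 libraries alone, 0 of the 5 markers fitted passed (Fabp4 adjusted p = 0.0656). Of 11 chondrocyte and osteoblast markers, 1 was called higher and 2 lower (173 to 228 CPM in 35 d cells against 69.4 to 179 CPM in 15 d cells). Alpl, alkaline phosphatase, had 188, 128 and 179 CPM in 35 d cells and 43.8, 19.8 and 22.8 CPM in 15 d cells (2.52 ± 0.30). The cartilage genes Sox9 (-2.21 ± 0.42) and Comp (-2.26 ± 0.67) fell. Both were highest in library S11, without which Sox9 was at -1.17 and Comp at 0.01 (adjusted p = 0.992); Comp overlapped between the groups and also did not pass without S22 (adjusted p = 0.0557) or S24 (0.0527). So 1 was lower without any one of S11, S22 and S24.

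The remaining marker lists held few calls. Of 5 epithelial markers tested, 0 passed (sums of 18.2 to 23.5 CPM in 35 d cells and 11.9 to 19.3 CPM in 15 d cells; at an unadjusted p under 0.05 it was also 0, by DESeq2 0 and by limma on TPM 1; by edgeR, 1 was higher without library S11). Of 7 mesothelial markers, 2 were called higher, Calb2 (2.53 ± 0.94) and Wt1 (1.09 ± 0.41), and 1 lower, Upk3b (-4.68 ± 1.15, and -4.08 without S24), with sums of 9.53 to 16.6 CPM in 35 d cells against 10.3 to 14.5 CPM in 15 d cells; with any 1 of S11, S12, S22 and S23 left out, 0 were higher and 1 lower, and without S10 or without S24 1 and 1. Of 9 Schwann cell markers, 0 were called higher and 1 lower, S100b (-2.61 ± 0.65), a call lost without library S11, while 1 member was higher and 1 lower without S10 or without S12 (sums of 24.6 to 52.2 CPM in 35 d cells against 18.8 to 80.2 CPM in 15 d cells). Of 7 neuronal markers, 2 were called higher, Stmn2 (1.59 ± 0.57) and Nefm (21 counts in 35 d cells against 1 in 15 d cells, 18-fold higher, counting interval 2.9 to 745), and 2 lower, Map2 (-2.14 ± 0.62) and Tubb3 (-0.85 ± 0.32), with sums of 18.9 to 31.4 CPM in 35 d cells against 20.8 to 47.9 CPM in 15 d cells. Of these 4, Map2 did not pass without S11 (-1.04, adjusted p = 0.225) or S24 (0.0513), Stmn2 not without S10 (0.131), S12 (0.0858), S23 (0.104) or S24 (0.102), and Tubb3 not without S10 (0.072), S12 (0.190), S22 (0.181) or S24 (0.1). Without library S12 1 was higher and 1 lower, and without library S24 1 and 0. With the 6 libraries alone in the edgeR fit, 0 of the neuronal markers fitted passed, and Nefm was not among those fitted. Of 5 skeletal muscle markers, 1 was called higher, Mylpf (1.33 ± 0.32), and 1 lower, Tnnt2 (-3.76 ± 0.76, and -2.61 without S11), with sums of 111 to 190 CPM in 35 d cells against 256 to 295 CPM in 15 d cells. Of 2 lymphocyte markers tested, Cd79a passed (1.86 ± 0.57), with sums of 0.641 to 1.98 CPM in 35 d cells against 0.246 to 0.56 CPM in 15 d cells, and the call was lost without S11 and without S23.

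The same 35 d over 15 d contrast before removal, in libraries not used above, asks which of these differences were there at the end of exposure. It called 2543 genes higher (13.6%) and 2175 lower (11.6%). Of the genes higher in 35 d cells after removal, 890 were also higher before it, which is 31.6% of the 2820 and 35.0% of the 2543. Of those lower after removal, 696 were also lower before, 23.2% of the 2994 and 32.0% of the 2175. Another 251 genes were higher after removal but lower before it, 8.9% of the 2820. A further 341 were lower after but higher before, 11.4% of the 2994. Beside these stand the 11.6% lower and 13.6% higher of all genes before removal. Interferon genes were lower in both (29 of 40 after, 32 of 40 before removal), as were cholesterol genes (16 and 13 of 28) and mitosis genes (25 and 11 of 30). Lmnb1 had 6.64, 6.33 and 5.38 CPM after 35 d of KU60019 and 13, 13.5 and 14 CPM after 15 d, a fall of close size to that after removal (-1.14 ± 0.18 and -1.19 ± 0.18 on the log2 scale).

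Other groups stood differently before and after removal. Extracellular matrix genes before removal were higher for 14 of 37 and lower for 1, complement genes higher for 8 of 13 and lower for 0, contractile genes lower for 14 of 17 and higher for 0, and ATF4 targets higher for 1 and lower for 13 of 20. Col1a2 had 2810, 3040 and 2780 CPM at 35 d and 1830, 1560 and 1650 CPM at 15 d before removal (0.77 ± 0.16). Cxcl14 had 834, 986 and 1540 CPM at 35 d and 1010, 1640 and 1160 CPM at 15 d before removal, with overlapping groups. Its level in 35 d cells after removal lay in that range, and that in 15 d cells far below it. S100a8 was lower at 35 d than at 15 d before removal, with 3.45, 3.9 and 3.7 CPM at 35 d and 46.5, 35 and 33.4 CPM at 15 d (-3.38 ± 0.31). Gzme likewise had 3.45, 3.23 and 5.15 CPM at 35 d and 65.7, 69.9 and 61.2 CPM at 15 d before removal (-4.07 ± 0.49). Clec3b had 13.3, 6.41 and 6.83 CPM at 35 d and 2.19, 1.41 and 1.42 CPM at 15 d before removal (2.42 ± 0.57), so its highest levels were in 15 d cells after removal.

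**Figure D4:**
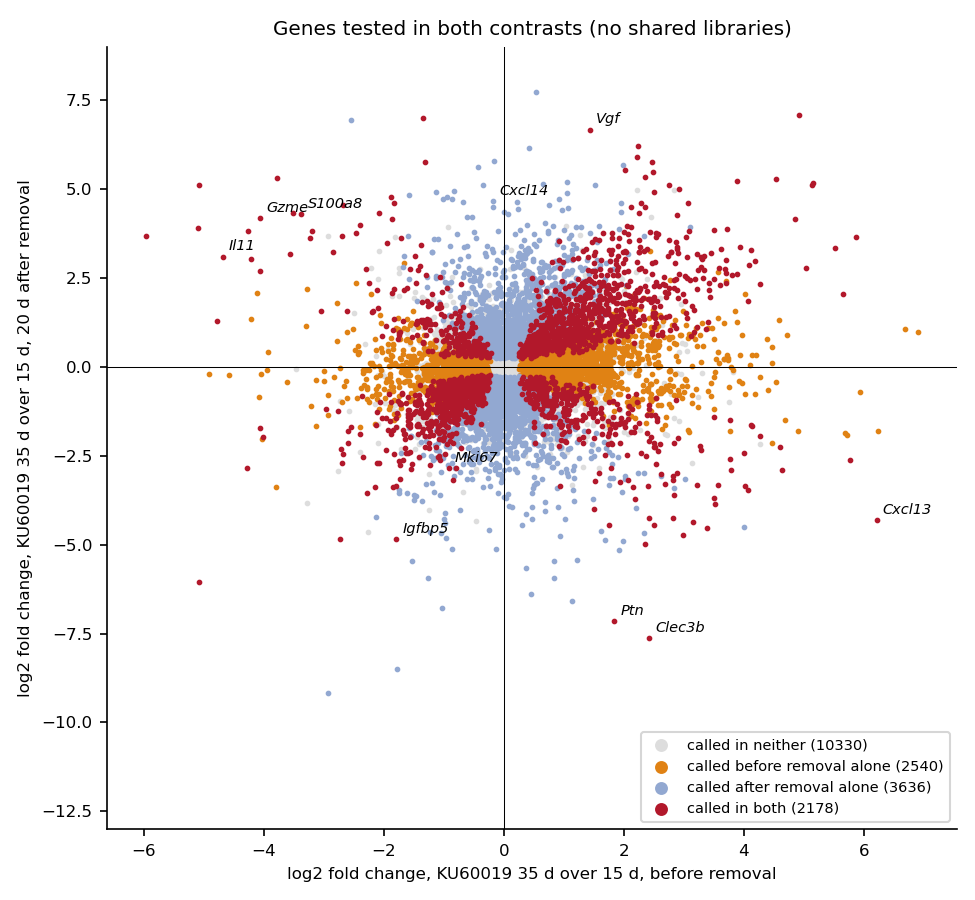
Log2 fold change of 35 d over 15 d of KU60019 for each gene, before removal (horizontal) and 20 d after removal (vertical), from separate libraries, coloured by where the gene was called. The 2178 genes called in both spread to every side of 0, with 890 higher in both and 696 lower in both.

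The difference between these contrasts, tested as an interaction, was positive for 1700 genes (9.10%) and negative for 2006 (10.7%). It shares the libraries of both contrasts, so its values are given beside theirs. It was negative for 23 of 37 extracellular matrix genes and positive for 0, and negative for 8 of 13 complement genes and positive for 0. It was positive for 10 of 17 contractile genes and 12 of 20 ATF4 targets with 0 negative. Of the proliferin, granzyme and Akr1c18 genes, it was positive for 7 of 8 and negative for 0. That list was drawn up with earlier results of these data known, so its count is no separate support. For interferon genes it was positive for 1 and negative for 4 of 40, and for mitosis genes positive for 0 and negative for 7 of 30. With library size alone the split was 2828 positive against 1252 negative, and on TPM 2452 against 756.

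Vehicle cultures give the same difference of 20 d in culture time without inhibitor. In DMSO, 35 d then removed against 15 d then removed, 5729 genes were higher (30.7%) and 6177 lower (33.1%); on TPM the split was 2215 against 9632. Mitosis genes went the opposite way there, with 29 of 30 called higher and 0 lower, as did 32 of 33 DNA replication genes. Mki67 had 480, 357 and 338 CPM in DMSO cells after 35 d and removal, and 19.6, 17 and 16.7 CPM after 15 d and removal. The 3 longer DMSO libraries were thus far above all 35 d and 15 d KU60019 cells. Summed mitosis genes stood at 2230 to 3260 CPM in them and at 280 to 314 CPM in the shorter DMSO libraries. In DMSO cells of 35 d without removal the sum was 224 to 313 CPM. The longer DMSO group thus differed from these DMSO groups in more than its time in culture shows. The part of this state in the DMSO calls was not tested. Extracellular matrix genes fell there too, with 1 of 37 higher and 32 lower. Of the genes higher in 35 d KU60019 cells, 649 were higher and 1088 lower in DMSO (23% and 38.6% of the 2820, and 11.3% and 17.6% of the DMSO calls in those directions). Of those lower, 843 were lower and 1122 higher (28.2% and 37.5% of the 2994, and 13.6% and 19.6% of the DMSO calls).

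The difference between the KU60019 and DMSO contrasts passed for 11028 genes (59.0%), 5494 positive and 5534 negative, and with library size alone 7220 and 3710. For Cdkn1a it was 0.25 ± 0.25 (adjusted p = 0.406), with a rise in both contrasts (1.03 ± 0.18 in KU60019 cells and 0.79 ± 0.18 in DMSO cells). The longer DMSO cultures include a library with 2.91% of counts in ribosomal RNA genes and a TMM factor of 0.694, and another with 0.431%. The shorter DMSO cultures include 1 with 0.844%. The part of these libraries in this difference was not settled. A fit without all libraries above 0.4% drops libraries of both DMSO groups. It leaves 1 library in the longer group, assumed to vary like the others.

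**Figure D5:**
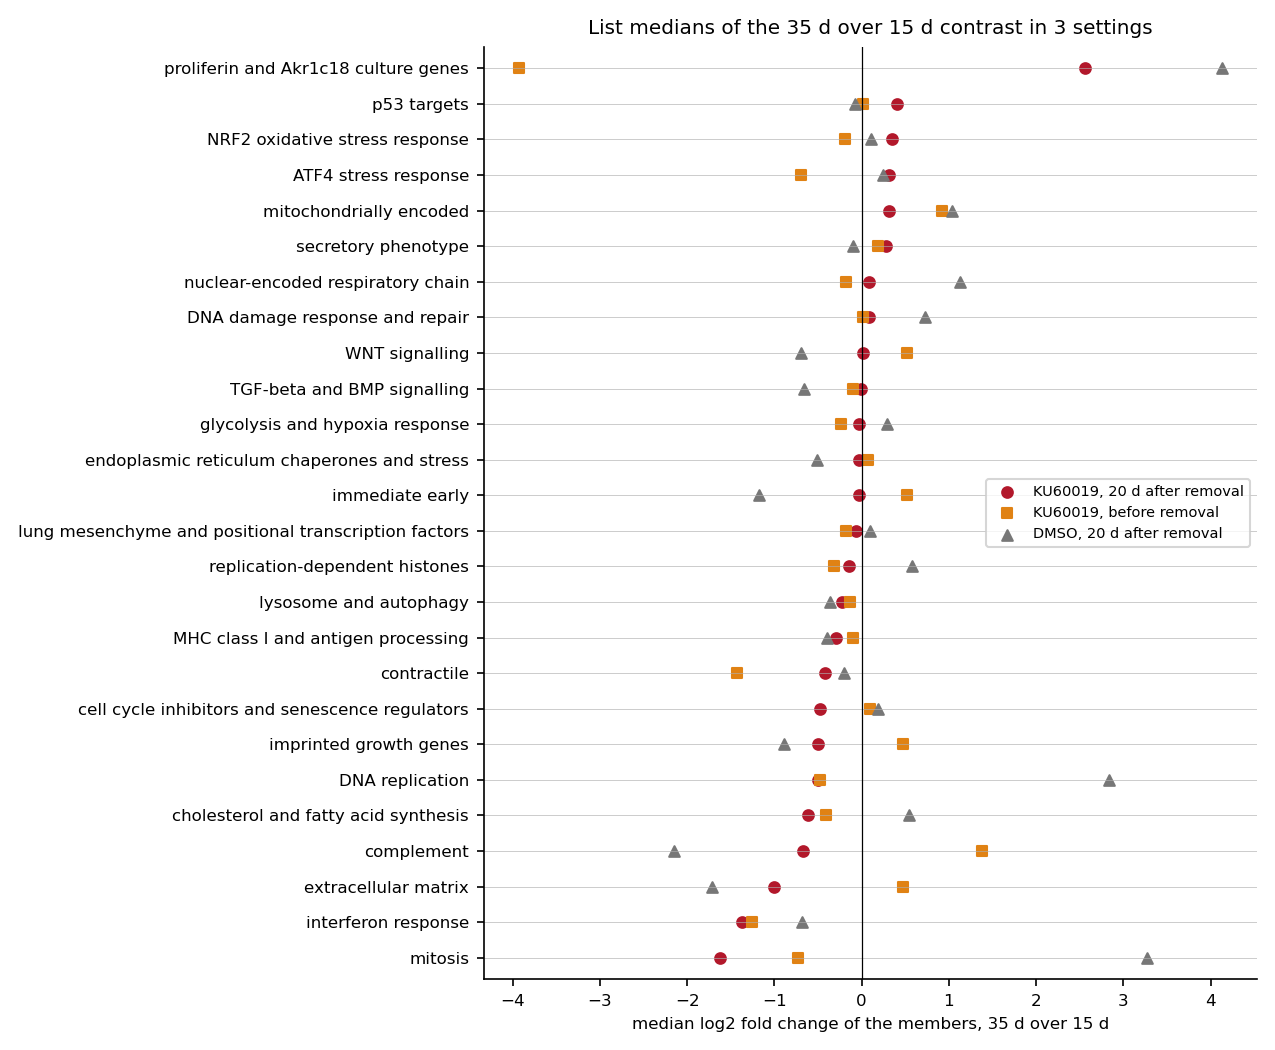
Median log2 fold change (horizontal) of the members of 26 gene lists (rows) for 35 d over 15 d of KU60019 after removal (circles), KU60019 before removal (squares) and DMSO after removal (triangles). Interferon medians lie left of 0 in all 3 (-1.37 in KU60019 cells after removal), whereas mitosis lies at -1.62 in KU60019 cells after removal and at 3.27 in DMSO.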

How the data were processed

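The series holds 27 RNA-seq libraries in 9 groups of 3, placed by their titles. The deposited counts per gene are raw read counts. The submitters' processing notes name featureCounts and mm10 for them, while aligner, annotation release and strand setting are not given in these sources. The deposited TPM values, also the authors' own, were used only for an alternative. The table of counts holds 48440 genes, 48058 of them with a symbol, and 40606 versioned IDs matched GENCODE M21, which gave positions. Library totals ran from 20659745 to 50859493 counts.

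The tests used edgeR 4.0.16 under R 4.3.3. filterByExpr with a minimum count of 10 kept 18684 genes, TMM factors scaled the libraries, and a quasi-likelihood model of the 9 group means gave 5 contrasts, adjusted by Benjamini-Hochberg and called under 0.05. Standard errors are approximate, the fold change over the root of its F statistic. The steps were tested on simulated data. CPM use the TMM-scaled library sizes. Counting intervals are 95% and cover counting error only. Named genes are 9 panel genes, the 15 largest rises and 15 largest falls (adjusted p under 0.05, no overlap, 5 CPM or more on average where higher, no predicted or clone names), up to 4 members of each list with the lowest p, and 5 genes each way for the other contrasts. Dcn, Pdgfra and Vim were named after their values were seen. A few genes that the rule picks are not reported here. The comparison, its members, the 26 pathway lists and the 12 marker lists were chosen with earlier results of these data known. Promoter windows are RefSeq sequence on GRCm38.p6.

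Alternatives were scaling by RLE factors or by library size alone, all genes without a count minimum, a replicate block, removal of the gene length trend, protein-coding genes alone, DESeq2 1.42.0, limma 3.58.1 on log2(TPM + 1) and log2(TPM + 0.1), no libraries above 0.4% ribosomal RNA, a fit of the compared groups alone, and each replicate left out in turn.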

Additional observations from a re-analysis of the deposited data

Results flagged for a closer look

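The change from 15 d to 35 d differed between KU60019 and DMSO cultures, and between the times after and before removal, by the test of the difference itself (edgeR). The first difference passed for 11028 genes and the second for 3706. The values below are differences of log2 fold changes for the genes that the naming rule picked, and no cause was tested.

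Between the KU60019 and DMSO contrasts after removal, the panel genes Cdkn2a (-1.28), Cdkn2b (-1.30), Mki67 (-7.31), Lmnb1 (-3.42) and Il6 (5.03) differed. The largest positive differences were those of Cxcl14 (8.49), Tnfsf18 (8.36), Adamtsl2 (8.23), the cornified envelope gene Scel (7.90) and the cytokine gene Il33 (7.71). The largest negative ones were those of the water channel gene Aqp5 (-9.83), the interleukin 1 antagonist gene Il1rn (-9.36), Tspan11 (-8.80), S100a4 (-8.37) and the receptor gene Gfra2 (-8.07).

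Between the KU60019 contrasts after and before removal, 6 panel genes differed: Trp53 (1.01), Mdm2 (0.64), Cdkn1a (1.20), Cdkn2a (-1.54), Cdkn2b (-0.73) and Mki67 (-1.93). The largest positive differences were those of the granzyme gene Gzmd (9.65), the mast cell protease gene Mcpt8 (9.01), Gzme (8.25), Il11 (7.79) and S100a8 (7.68). Among the largest negative ones were those of the chemokine gene Cxcl13 (-10.53), Clec3b (-10.06), Ptn (-8.99) and the matrix protein gene Cilp (-8.05).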

How the results depend on the processing

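The 5 counts of calls stayed within 1.5 times of their value under most alternatives. In a fit of the compared groups alone, 2636 genes (1343 higher, 1293 lower) passed after removal, against 5814; before removal 7844 passed, against 4718. Without libraries above 0.4% ribosomal RNA, 6832 passed in DMSO, against 11906, where the fit leaves 1 library of the longer and 2 of the shorter DMSO cultures and assumes that the lone one varies like the rest. With each replicate left out in turn, the counts ran from 4505 to 6521 after removal, 10907 to 12152 in DMSO, 3228 to 4110 before removal, 10083 to 11673 for the difference between KU60019 and DMSO, and 2844 to 4276 for that between after and before removal. The cause of these moves was not tested. On TPM the split before removal was 1257 higher and 2215 lower, and that of the difference between KU60019 and DMSO 9337 positive and 1954 negative.

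With a replicate block 5748 genes passed, 5582 of them among the 5814; none of the other 4 counts moved by over 1.5 times. Under the block Marco did not pass (adjusted p = 0.0566), and 2 Schwann cell markers were higher and 1 lower. Titles also give each library a replicate number: S22 and S10 share one, as do S23 and S11, and S24 and S12. Deviations of same-numbered libraries had r of 0.06, -0.22 and -0.14 between 35 d and 15 d cells. Over the other pairs of groups compared, r ran from -0.45 to 0.22. Yet libraries numbered like S22 had the highest summed secretory phenotype level in every group (23900 CPM against 18100 and 17700 in 35 d cells). The same held, in some groups narrowly, for adipocyte and lipofibroblast markers. A shared origin was not tested, and the main fit did not use pairs.

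Of 162 named genes, 25 lost their call with the compared groups alone (of 155 fitted) and 16 without library S11. One of the 16, Comp, turned direction (0.010), with its log2 fold changes running from -2.79 to 0.01 when each library was left out in turn. Of 646 counts per list and setting, 89 moved by over 1.5 times. Genes under a few counts per library limit what can be called, as their folds rest on counting error.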
